A study of Mus musculus with 4 samples.

Results

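Chemokines that draw T cells, and the receptors that answer them, were followed through the cells of mouse tumours given enzyme nanocapsules and of control tumours. The 8 genes, found by symbol, are the ligands Cxcl9, Cxcl10, Cxcl16, Ccl5, Ccl3 and Ccl4 and the receptors Cxcr3 and Cxcr6. They are 8 of the 32285 genes measured, and each had 1 row. Single-cell RNA was read from tumours of C57Bl6 mice aged 6 to 8 weeks in 2 libraries labelled Control and 2 labelled Nanocapsule treated, so n = 2 per group throughout. The labels name no enzyme, tumour line, dose or time after treatment, and nothing says that replicates came from separate animals, so every p-value below measures only the spread between these 4 libraries. The series title speaks of T cell immunity and cancer immunotherapy, and the comparison here is which cells held each ligand, which held the receptor, and whether either level differed with treatment.

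Chemokines are small secreted proteins that leukocytes follow up a gradient through G-protein-coupled receptors. CXCL9 and CXCL10 are ligands of CXCR3, which activated T cells and natural killer (NK) cells carry, and both genes are induced by interferon gamma. In tumours they are known as products of macrophages, dendritic cells and, for CXCL10, of many cell types under interferon. CXCL16 is made as a membrane protein on antigen-presenting cells and is the ligand of CXCR6, a receptor of effector and tissue-resident T cells. CCL3, CCL4 and CCL5 are CC chemokines that attract T cells and monocytes, and cytotoxic lymphocytes themselves make them after activation.

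Cxcl9 and Cxcl10 are neighbours in the genome, and their start regions are shown because these 2 ligands are the members whose summed level was higher in both nanocapsule libraries. In GRCm38 with GENCODE release M21, Cxcl9 is the protein-coding gene at bases 92321347 to 92328079 of chromosome 5 on the minus strand. Cxcl10 lies at 92346638 to 92348889 on the same strand, 18558 bases away and inside Art3, which runs on the plus strand. RefSeq windows from 250 bases before to 50 after the start (GRCm38.p6) were given for 5 of the 8 genes and searched on both strands for 3 motifs. These were the interferon-stimulated response element (GAAA and GAAA with any 2 bases between), the gamma-activated site (TTC and GAA with any 3 between) and the kappaB motif (GGG and TTCC with any 3 between), and none of the 3 matches found overlapped another. The Cxcl10 window, chr5:92348840-92349139 on the minus strand, held 1 interferon-stimulated response element starting 213 bases before the start and 2 kappaB motifs at 159 and 104 bases, shown in capitals. The Cxcl9 window, chr5:92328030-92328329 on the minus strand, held none of these letters, nor did those of Ccl3, Cxcr3 and Cxcr6. Of 32851 windows, 3.44% held the first motif, 8.30% the second and 5.56% the third. The sequences run 5′ to 3′.
Cxcl9: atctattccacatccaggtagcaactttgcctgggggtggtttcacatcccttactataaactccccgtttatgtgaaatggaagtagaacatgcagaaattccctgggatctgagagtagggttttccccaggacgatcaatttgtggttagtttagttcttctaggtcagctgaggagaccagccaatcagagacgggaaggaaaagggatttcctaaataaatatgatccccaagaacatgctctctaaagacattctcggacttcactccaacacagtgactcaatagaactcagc
Cxcl10: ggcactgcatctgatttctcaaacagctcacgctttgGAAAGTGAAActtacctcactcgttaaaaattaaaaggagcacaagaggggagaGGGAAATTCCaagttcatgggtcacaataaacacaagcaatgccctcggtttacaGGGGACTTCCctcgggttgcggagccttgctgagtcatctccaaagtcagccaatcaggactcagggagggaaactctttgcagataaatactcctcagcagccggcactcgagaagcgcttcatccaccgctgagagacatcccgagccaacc

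The other ligands lie on chromosome 11 of GRCm38 and are protein-coding. Cxcl16 (70453983 to 70459984, minus strand) overlaps Zmynd15 on the plus strand. Ccl5 lies at 83525778 to 83530518 and Ccl3 at 83647844 to 83649355, both on the minus strand, and Ccl4 at 83662584 to 83664683 on the plus strand. Cxcr3 lies on chromosome X at 101731535 to 101734269 (minus strand). Cxcr6 lies on chromosome 9 at 123806475 to 123811760 (plus strand), inside Fyco1 on the minus strand. Whether counting used the strand is not given in the sources used here, so reads of Cxcl10, Cxcl16 and Cxcr6 cannot be told apart from those of the genes they overlap.

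The 4 libraries held between 98943390 and 140491491 unique molecular identifiers (UMIs, each counting 1 captured RNA molecule), and 9548 barcodes passed as cells. Clusters drawn without the 8 genes were named from marker genes, and "-like" marks that origin. Most cells (6883) were melanocytic tumour-like, next to 436 macrophage-like, 162 T-like, 157 B-like, 87 conventional dendritic-like, 54 NK-like and 29 neutrophil-like cells. The labels give the cell type as cancer cells. The 8 pigment-cell markers served to name the tumour-like class, so finding them there is no separate evidence of its identity. All 8 were also found in the macrophage-like cells of every library. Within these classes, a level is given in CPM, UMIs of the gene per 1000000 UMIs of the class in that library, and 4 values in a row follow the order Control 1, Control 2, Nanocapsule 1, Nanocapsule 2. Of the 9548 cell barcodes, 72 occurred in more than 1 library, and leaving them out turned the sign of 1 member fold, noted at Ccl5.

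For 6 of the 8 genes the class with the largest share of UMIs was a small immune class, and for Cxcl10 and Cxcr3 it was the tumour-like cells. Macrophage-like cells held 75.0% of all Cxcl9 UMIs in cells, 72.0% of Cxcl16, 53.7% of Ccl3 and 51.8% of Ccl4, while making up 4.57% of cells. These shares pool the 4 libraries. The macrophage-like Cxcl9 UMIs numbered 88, 36, 114 and 1288, so the Cxcl9 share rests mainly on Nanocapsule 2. In Control 1 that share was 58.3%, with 19.9% in fibroblast-like cells. T-like cells, 1.70% of cells, held 79.4% of Cxcr6 UMIs and 43.4% of Ccl5 UMIs. Tumour-like cells, 72.1% of cells and 94.4% of all UMIs, held 78.8% of Cxcl10 UMIs and 87.3% of Cxcr3 UMIs. B-like cells held a single UMI of the 8 genes, of Ccl3, in 157 cells. For the other 7 genes their 0 UMIs allow up to 7.24 CPM, the level of 3 UMIs over the class, a limit that covers counting error only.

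**Figure D1:**
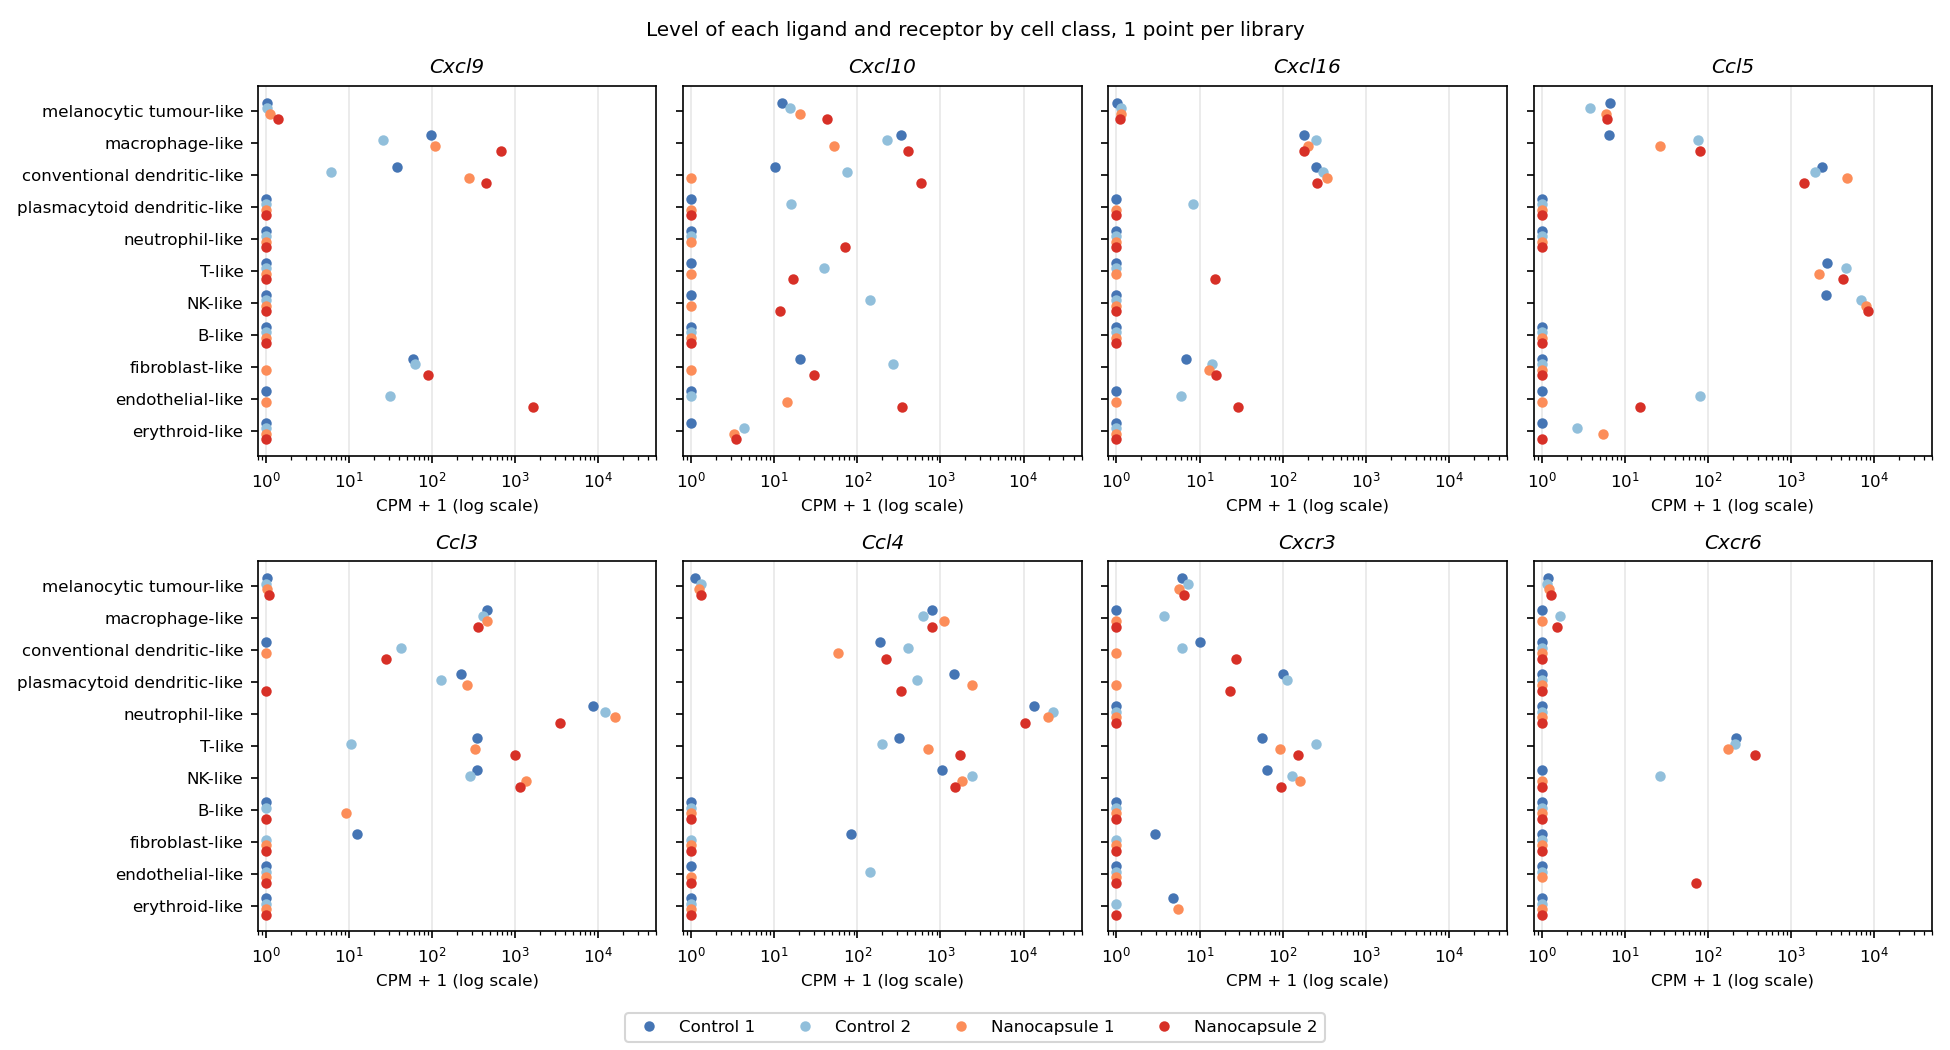
Level of each gene in 11 cell classes, as CPM + 1 on a log axis, with 1 point per library (blue, control; orange and red, nanocapsule). Points at 1 are levels of 0 CPM. Cxcl9 and Cxcl16 sit in macrophage-like and conventional dendritic-like cells, Ccl5 in T-like, NK-like and conventional dendritic-like cells, and Cxcr6 in T-like cells.

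**Figure D2:**
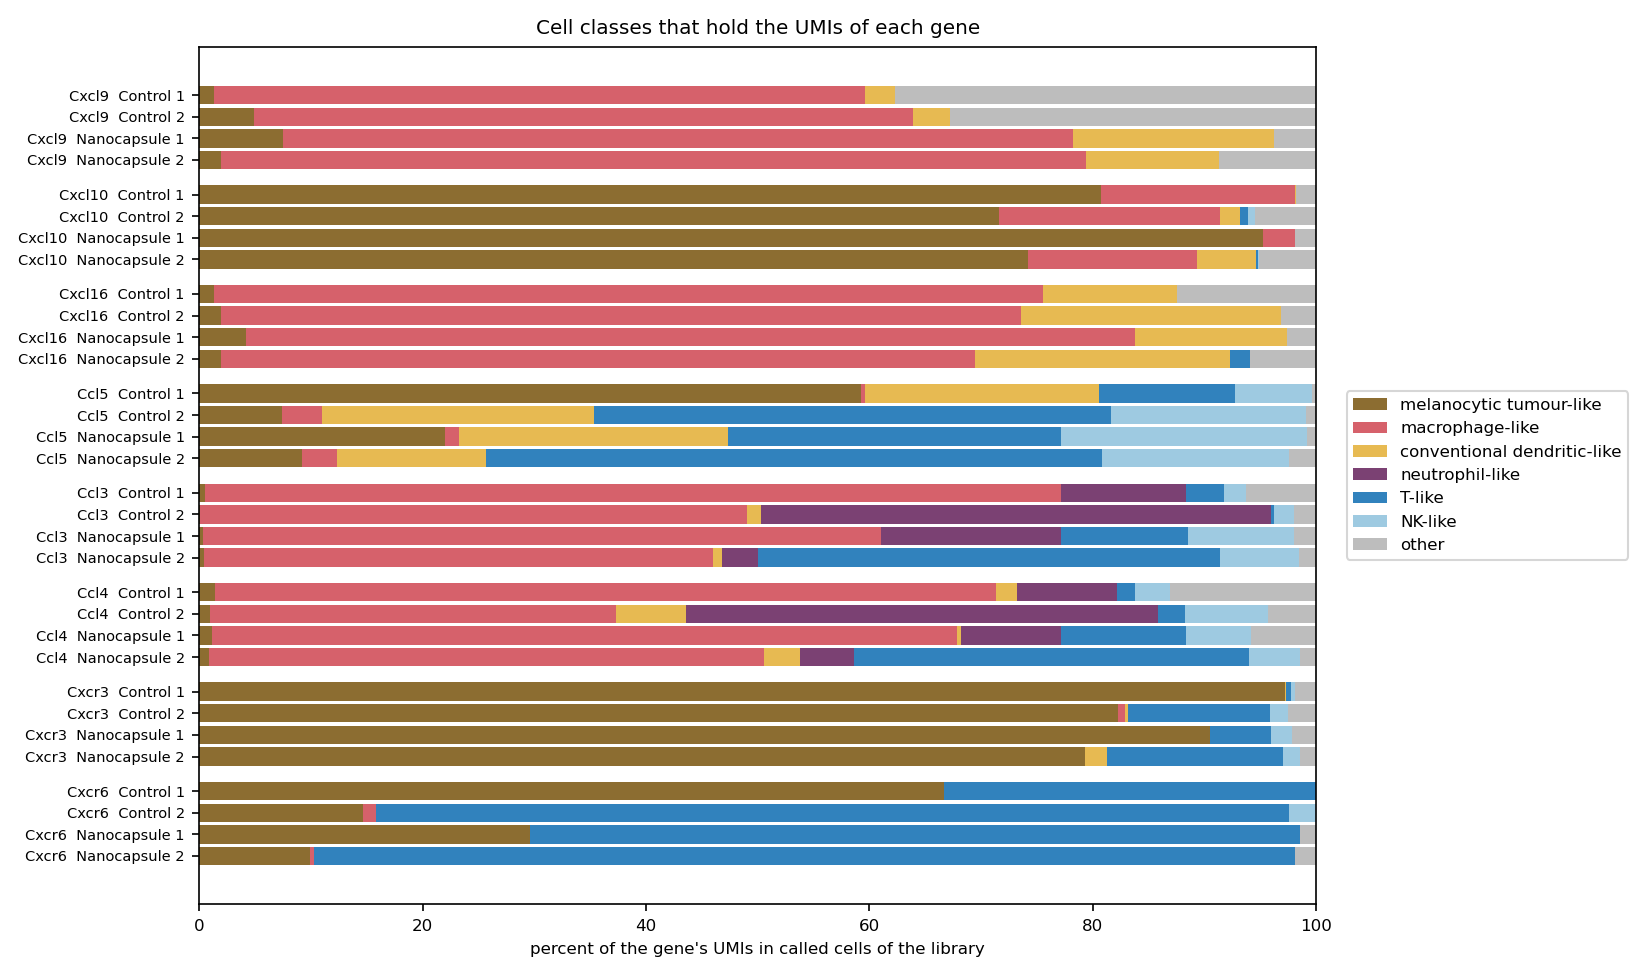
Share of each gene's UMIs held by each cell class in each library, in percent of the UMIs in called cells. The grey part joins all other classes. The tumour-like share of Ccl5 ranged from 7.40% in Control 2 to 59.2% in Control 1, which held 13 T-like cells.

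In edgeR's quasi-likelihood test, adjusted over all genes, no member passed 0.05 in any class that could be fitted. Over all called cells 8 members were tested, in tumour-like cells 7 (not Ccl3), in macrophage-like cells 6 (neither receptor), in T-like and NK-like cells summed together 5 (not Cxcl9, Cxcl10 or Cxcl16) and in B-like cells 0. The share of all genes called was 0% in the first 4 of these fits and 0.153% in B-like cells (3 of 1955). At an unadjusted p under 0.05 the 5 fits held 930, 1256, 279, 426 and 95 genes, and DESeq2 called 65, 91, 2, 3 and 1, none of them a member. T-like, NK-like and conventional dendritic-like cells each had under 20 cells in at least 1 library and were not fitted alone. NK-like cells gave 31634 of 86111, 77381 of 390798, 56435 of 338113 and 93721 of 725674 UMIs of the joined T-like and NK-like sum. In its folds a change within cells cannot be told apart from a change in the mix of the 2 classes. A single value compared by exact permutation of 2 libraries against 2 cannot give a p under 0.333.

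Members whose nanocapsule libraries both lay above both controls were 2 of 8 in all called cells (Cxcl9, Cxcl10), against 17.6% of all genes tested. In tumour-like cells they were 3 of 7 (Cxcl9, Cxcl10, Cxcr6), against 19.9%, and in macrophage-like cells 1 of 6 (Cxcl9), against 15.4%. In T-like and NK-like cells together they were 2 of 5 (Ccl3, Ccl4), against 18.4%. No member lay below both controls in any of these fits, where 15% to 19% of all genes did. For classes and subsets outside these fits, such shares over all genes were not computed. Statements below that their groups did not overlap are therefore descriptions only, and some such separations in either direction arise among any 8 genes over many subsets. With so few members the counts above are descriptions too, and the folds of the 8 genes are plotted with their standard errors.

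**Figure D3:**
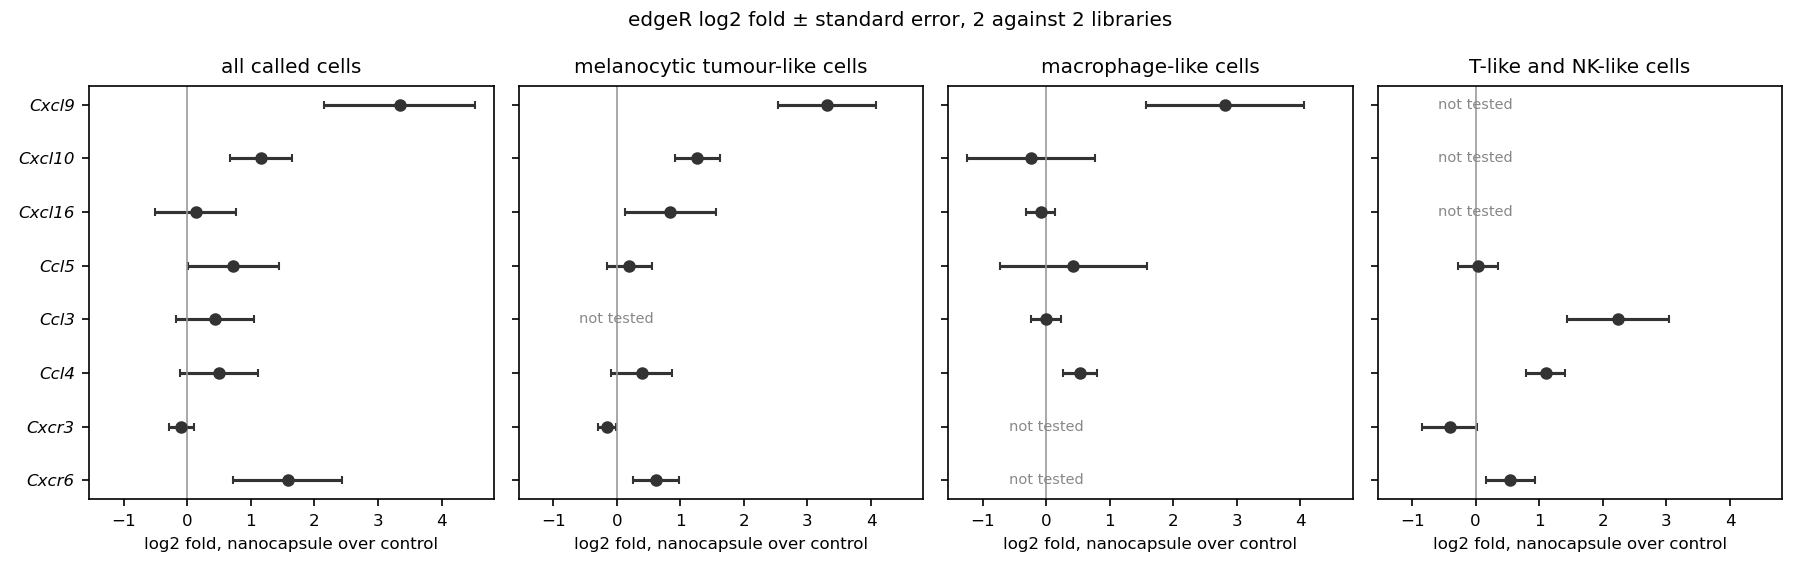
edgeR log2 fold of each member, nanocapsule over control, with its standard error, in the 4 fits that held members; the vertical line marks no difference. Cxcl9 has the highest fold in the first 3 panels (3.34, 3.31 and 2.81) and Ccl3 in the last (2.24), and no adjusted p passed 0.05.

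Cxcl9 transcripts, for the CXCR3 ligand most tied to interferon gamma, were found chiefly in macrophage-like and conventional dendritic-like cells. In macrophage-like cells the level was 94.8 and 24.5 CPM in the controls and 107 and 680.4 CPM in the nanocapsule libraries. Both nanocapsule libraries lay above both controls, but Nanocapsule 1 only just, and the spread between the nanocapsule libraries was wide: 59.7 ± 49.6 CPM in control and 394 ± 405 CPM in nanocapsule libraries (mean ± SD, n = 2). The log2 fold was 2.81 ± 1.24 (SE; edgeR adjusted p = 1.00). It was 1.05 without Nanocapsule 2, and 3.60 with an adjusted p of 4.2e-32 without Nanocapsule 1, where the lone library is assumed to vary like the others. Few cells carried the transcript, 8 of 122, 7 of 132, 11 of 78 and 38 of 104 macrophage-like cells, and the cell with most held 40.9%, 38.9%, 34.2% and 11.1% of the UMIs. Without that cell the levels were 56.9, 15.1, 71.5 and 609.5 CPM, still with no overlap. Depth moved with the result: macrophage-like cells had median totals of 5988, 10185, 11830 and 13743.5 UMIs. With every cell thinned to 1500 UMIs, 4.92%, 2.27%, 6.41% and 24.0% of them held a Cxcl9 UMI. The 10 conventional dendritic markers summed to 67.8, 73.0, 55.6 and 109 CPM in macrophage-like cells, with 4, 4, 5 and 3 at 0, and the 8 pigment-cell markers to 1744, 1114, 1892 and 703 CPM, with none at 0. The part of depth, and of RNA from these other cells, in the difference was not tested.

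Within the macrophage-like class, cells were split by transcripts of C1q, a complement component of tissue macrophages, and of Arg1, arginase. Cells with C1q and no Arg1 held Cxcl9 at 143, 7.82, 354 and 804 CPM, and cells with Arg1 at 23.2, 9.09, 57.2 and 235 CPM. In both subsets both nanocapsule libraries were above both controls. Cells with neither transcript stood at 42.9, 108, 0 and 1279 CPM and overlapped. These subsets held as few as 14 cells in a library and were not tested. They rest on finding a UMI, which depends on depth. Median totals were 4363.5, 6294, 8187 and 9659.5 UMIs in cells with neither transcript. In cells with C1q and no Arg1 they were 8144.5, 14053, 14701 and 17517.5 UMIs. The part of depth in differences between these subsets, here and for the other genes below, was not tested.

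Conventional dendritic-like cells, which prime T cells, held Cxcl9 at 37.1, 5.13, 276 and 441 CPM, with UMIs in 1 of 14, 1 of 36, 3 of 11 and 15 of 26 cells. The nanocapsule libraries were both above the controls, 21.1 ± 22.6 CPM in control and 358 ± 116 CPM in nanocapsule libraries (mean ± SD, n = 2), on 11 to 36 cells per library. The ranges of macrophage-like and conventional dendritic-like cells overlapped, so no order between them is given. In Nanocapsule 2, 117 Cxcl9 UMIs came from 1 of 2 endothelial-like cells, and fibroblast-like cells held 58.1, 61.1, 0 and 87.5 CPM on 26, 12, 6 and 5 cells. T-like, NK-like, B-like and erythroid-like cells held none, which allows up to 2.34, 11.6, 7.24 and 1.73 CPM over the 4 libraries. In tumour-like cells Cxcl9 was near 0, at 2, 3, 12 and 33 UMIs in 2 of 3204, 2 of 1138, 6 of 1536 and 7 of 1005 cells. Its fold there, 3.31 ± 0.77 (SE; edgeR adjusted p = 0.633), rests on these few UMIs, and in Nanocapsule 2 a single cell gave 51.5% of that library's. The ligand's level in empty droplets, a measure of free RNA, was 1.88, 0, 1.56 and 16.2 CPM, and it was highest in the library whose macrophage-like cells held most.

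Summed over every called cell, Cxcl9 was at 1.15 and 0.685 CPM in the controls and 1.65 and 17.6 CPM in the nanocapsule libraries, a log2 fold of 3.34 ± 1.19 (SE; edgeR adjusted p = 0.879). Without Nanocapsule 2 it was 0.85. In such sums more cells of a producing class and more RNA per cell cannot be told apart. Macrophage-like cells were 122, 132, 78 and 104 in number, or 3.18%, 7.17%, 3.40% and 6.59% of the called cells. They gave 928696 of 131074159, 1466492 of 88993955, 1061849 of 97855486 and 1892932 of 94612000 UMIs.

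Cxcl10, the second CXCR3 ligand, differed from Cxcl9 in that most of its UMIs lay in tumour-like cells. Their level was 11.4 and 14.3 CPM in the controls and 19.6 and 42.6 CPM in the nanocapsule libraries. Both nanocapsule libraries were above both controls, 12.9 ± 2.07 CPM in control and 31.1 ± 16.3 CPM in nanocapsule libraries (mean ± SD, n = 2), with a log2 fold of 1.27 ± 0.36 (SE; edgeR adjusted p = 0.633). Leaving out Nanocapsule 1 gave 1.71 with an adjusted p of 0.00246, and leaving out Nanocapsule 2 gave 0.63 with 0.612. Cxcl10 UMIs were found in 18.1%, 26.8%, 26.8% and 40.8% of tumour-like cells at median depths of 38236.5, 76205.5, 60587.5 and 88260 UMIs. Thinned to 1500 UMIs the shares were 1.40%, 1.67%, 1.95% and 4.38%. In 157 B-like cells, of median depth 2586 UMIs, no Cxcl10 UMI was found. Empty droplets held Cxcl10 at 14.4, 23.6, 13.2 and 37.1 CPM and were highest in Nanocapsule 2 too.

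One cluster of tumour-like cells was led by interferon-induced genes such as Rsad2, Tgtp1 and Iigp1, none of them among the 8. It held 42, 19, 92 and 155 cells, or 1.31%, 1.67%, 5.99% and 15.4% of tumour-like cells. Cxcl10 stood there at 17.6, 149, 96.1 and 160.4 CPM, and in the other tumour-like clusters at 11.4, 12, 14.6 and 19.0 CPM. Control 1 was the exception within the cluster, with a level near that of the other clusters. The cluster held 1.80%, 17.7%, 29.9% and 62.9% of the Cxcl10 UMIs of tumour-like cells. Without it the tumour-like log2 fold was 0.52 (edgeR adjusted p = 0.595), still with both nanocapsule libraries above both controls. Of tumour-like cells without any UMI of the immune markers, the level was 11.3, 13.9, 21.2 and 50.5 CPM, again with both nanocapsule libraries above both controls. The interferon cluster also held 9 of the 12 and 32 of the 33 tumour-like Cxcl9 UMIs of Nanocapsule 1 and Nanocapsule 2.

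In macrophage-like cells Cxcl10 stood at 335 and 224 CPM in the controls and 50.9 and 401 CPM in the nanocapsule libraries. The nanocapsule libraries lay on either side of the controls and the log2 fold was -0.24 ± 1.01 (SE; edgeR adjusted p = 1.00). Leaving out Nanocapsule 2 gave -2.32 with an adjusted p of 5.1e-10, leaving out Nanocapsule 1 gave 0.55, and leaving out Control 1 gave 0.13, so the sign rests on single libraries. UMIs were found in 7 of 122, 18 of 132, 7 of 78 and 30 of 104 cells, and the cell with most held 47.3%, 32.8%, 33.3% and 14.5%. Macrophage-like cells with Arg1 held Cxcl10 at 320.5, 261, 38.1 and 71.4 CPM, both nanocapsule libraries below both controls, whereas Cxcl9 in the same cells was above. Only 3 of 32, 6 of 35, 3 of 43 and 4 of 32 of these cells had a Cxcl10 UMI. Cells with C1q and no Arg1, at 317, 38.0, 89.6 and 404 CPM, and cells with neither, at 429, 865, 53.6 and 1100.3 CPM, overlapped between groups. Conventional dendritic-like cells held 9.27, 74.3, 0 and 588 CPM, and in Nanocapsule 2 a single cell gave 77.6% of that. Over all called cells the level was 13.7, 18.7, 19.4 and 53.0 CPM and the log2 fold 1.16 ± 0.49 (SE; edgeR adjusted p = 0.879), which was 0.31 without Nanocapsule 2. Cxcl9 and Cxcl10 were partly found in the same macrophage-like cells: 31 cells held both, which is 48.4% of the 64 with Cxcl9 and 50% of the 62 with Cxcl10.

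**Figure D4:**
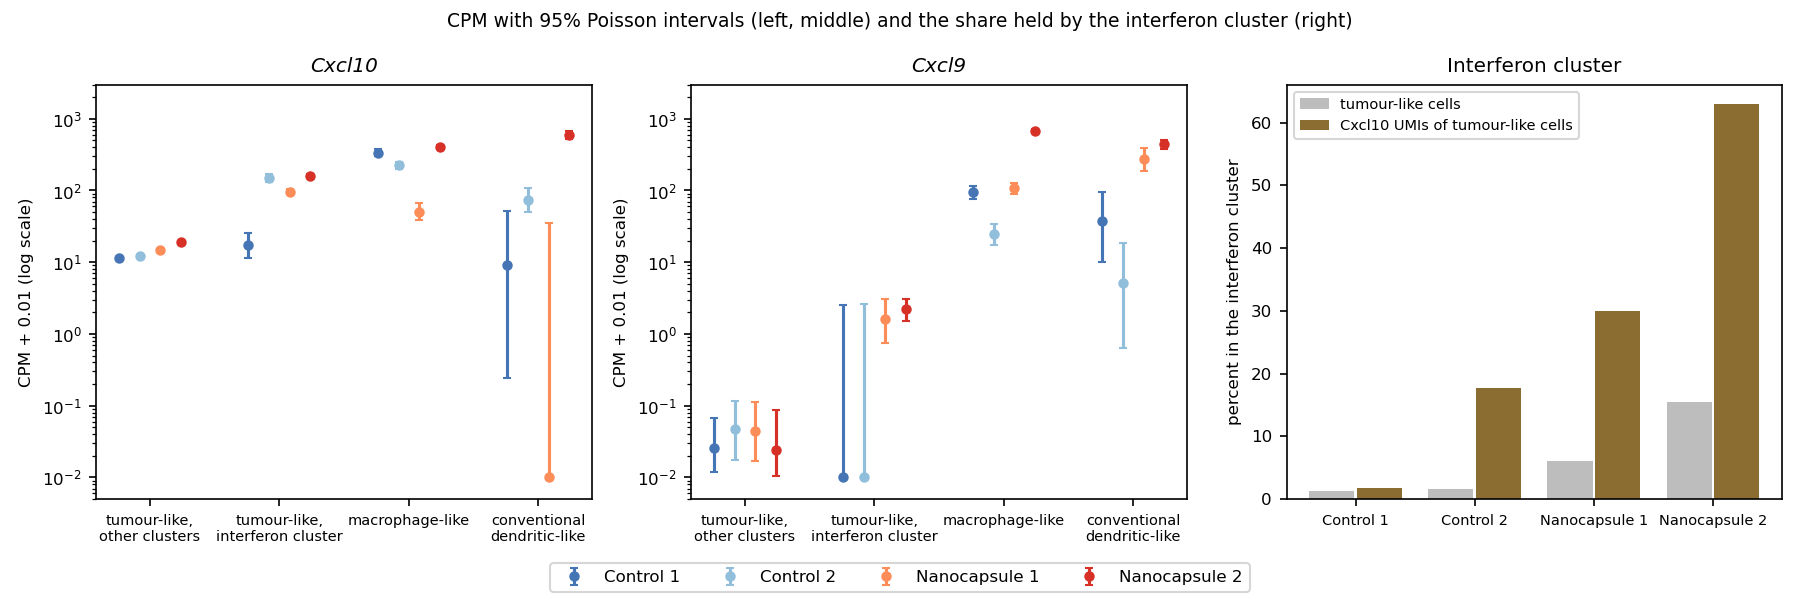
Left and middle, Cxcl10 and Cxcl9 in tumour-like cells outside and inside the interferon cluster, macrophage-like and conventional dendritic-like cells, as CPM + 0.01 on a log axis with 95% Poisson intervals that cover counting error only. Right, share of tumour-like cells and of their Cxcl10 UMIs in the interferon cluster, in percent. The cluster held 15.4% of the cells and 62.9% of the Cxcl10 UMIs in Nanocapsule 2.

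Cxcl16, the membrane-bound ligand of CXCR6, marked the same 2 antigen-presenting classes and differed far less between libraries than Cxcl9. Macrophage-like cells held 179.8 and 251 CPM in the controls and 199 and 179.6 CPM in the nanocapsule libraries. The libraries overlapped, 215 ± 50.3 CPM in control and 189 ± 13.5 CPM in nanocapsule libraries (mean ± SD, n = 2), and the log2 fold was -0.09 ± 0.23 (SE; edgeR adjusted p = 1.00). The sign turned on leaving out Control 2 (0.11) or Nanocapsule 2 (0.02). The transcript was widespread, found in 59 of 122, 86 of 132, 42 of 78 and 70 of 104 macrophage-like cells, and no cell held more than 8.53% of a library's UMIs. Cells with C1q and no Arg1 held 239.6, 283, 495 and 208 CPM, cells with Arg1 119.7, 267, 139 and 153 CPM and cells with neither 64.4, 112, 65.5 and 154 CPM.

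Conventional dendritic-like cells held Cxcl16 at 250.2, 308, 343 and 257 CPM, above the macrophage-like level of the same library in all 4. Zmynd15, which overlaps Cxcl16 on the opposite strand, was among the 10 leading genes of that cluster. T-like, NK-like and B-like cells held 9, 0 and 0 UMIs, the 9 in 1 cell. Tumour-like cells were near 0 at 0.0237, 0.120, 0.119 and 0.115 CPM. In tumour-like cells the log2 fold was 0.84 ± 0.72 (SE; edgeR adjusted p = 0.803), from 34 UMIs in all, and it was 0.01 without Control 1 and 2.19 without Control 2. Over all called cells the libraries also overlapped, with 1.72, 5.78, 2.71 and 5.33 CPM and a log2 fold of 0.13 ± 0.63 (SE; edgeR adjusted p = 0.993). That fold turned to -0.47 without Control 1 and to -0.39 without Nanocapsule 2.

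Ccl5, a CC chemokine made by cytotoxic lymphocytes, had its highest levels in NK-like, T-like and conventional dendritic-like cells, whose ranges overlapped. NK-like cells held 2655 and 7030.1 CPM in the controls and 8062 and 8515 CPM in the nanocapsule libraries, on 7, 17, 13 and 17 cells. Both nanocapsule libraries were above both controls, 4843 ± 3093 CPM in control and 8289 ± 319.8 CPM in nanocapsule libraries (mean ± SD, n = 2), but Control 2 differed from Control 1 by more than from the nanocapsule libraries. T-like cells held 2735 and 4610.5 CPM in the controls and 2187 and 4185 CPM in the nanocapsule libraries and overlapped. Ccl5 UMIs were found in 6 of 7, 17 of 17, 12 of 13 and 16 of 17 NK-like cells and 6 of 13, 34 of 63, 21 of 37 and 44 of 49 T-like cells. T-like cells with a Cd8 UMI and no Cd4 UMI held 4189, 7019.7, 3446 and 4952 CPM, and those with Cd4 and no Cd8 2659.6, 1017, 644 and 314 CPM. In the Cd4 subset both nanocapsule libraries were below both controls. The Cd8 level was above the Cd4 level in each library, on as few as 1 Cd4 cell in Control 1. Fitted together, T-like and NK-like cells gave a log2 fold of 0.04 ± 0.31 (SE; edgeR adjusted p = 0.998), which turned to -0.33 without Control 1, to -0.25 without Nanocapsule 2 and to -0.01 without shared barcodes.

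Conventional dendritic-like cells held Ccl5 at 2372, 1951, 4733 and 1428 CPM in 3 of 14, 12 of 36, 5 of 11 and 6 of 26 cells, a level reached by few cells, since the 5 with most held 100%, 84.0%, 100% and 99.8% of the UMIs. Macrophage-like cells held 5.38, 75.7, 25.4 and 79.2 CPM, with a log2 fold of 0.42 ± 1.16 (SE; edgeR adjusted p = 1.00) that was -0.37 without Control 1 and -0.63 without Nanocapsule 2. In tumour-like cells Ccl5 was at 5.73, 2.78, 4.91 and 5.04 CPM in 2.03%, 3.95%, 3.58% and 4.28% of cells, with a log2 fold of 0.20 ± 0.36 (SE; edgeR adjusted p = 0.92). It was -0.25 without Control 2 and -0.26 in cells without an immune-marker UMI, and the 5 cells with most held 54.5%, 60.2%, 66.3% and 81.1% of the UMIs. Empty droplets stood at 4.39, 30, 15.6 and 39.4 CPM, and B-like cells held none. Over all called cells the log2 fold was 0.72 ± 0.72 (SE; edgeR adjusted p = 0.925), and it ranged from 0.00 without Nanocapsule 2 to 1.87 without Control 2.

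Ccl3 and Ccl4, neighbouring genes for 2 further CC chemokines, were highest in the 29 neutrophil-like cells. There Ccl3 stood at 8648, 12029, 15783 and 3414 CPM and Ccl4 at 13251, 22589.8, 19482 and 10311 CPM, on 3, 17, 4 and 5 cells, with both groups overlapping. Macrophage-like cells, more numerous, held the larger part of the UMIs. Ccl3 was at 459.8 and 413 CPM in the controls and 455 and 360.3 CPM in the nanocapsule libraries there, with a log2 fold of -0.00 ± 0.23 (SE; edgeR adjusted p = 1.00). That fold lay between -0.24 and 0.25 in every alternative run. Macrophage-like cells with neither C1q nor Arg1 held Ccl3 at a mean of 616 CPM in control and 340 CPM in nanocapsule libraries. Both nanocapsule libraries were below both controls there. In cells with Arg1 the means were 342 and 496 CPM, with both nanocapsule libraries above both controls. Cells with C1q and no Arg1 overlapped. The share of all genes that separate in these subsets was not computed, and the opposite directions were not tested. Ccl4 was at 799 and 623 CPM in the controls and 1115 and 798 CPM in the nanocapsule libraries, with Control 1 at 799 and Nanocapsule 2 at 798 CPM, and its log2 fold was 0.53 ± 0.27 (SE; edgeR adjusted p = 1.00). Without Nanocapsule 1 it was 0.20 and without Control 2 0.30. The 2 transcripts were shared by the same cells, with 197 macrophage-like cells holding both, 76.4% of the 258 with Ccl3 and 78.5% of the 251 with Ccl4.

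In T-like cells Ccl3 stood at 349 and 9.57 CPM in the controls and 323 and 981 CPM in the nanocapsule libraries, found in 2 of 13, 3 of 63, 5 of 37 and 21 of 49 cells. Nanocapsule 2 was high and Control 2 low, and the groups overlapped through Control 1, in which 1 cell held 89.5% of the UMIs. Ccl4 was at 312 and 195 CPM in the controls and 710 and 1699 CPM in the nanocapsule libraries, in 3 of 13, 9 of 63, 11 of 37 and 25 of 49 cells, with both nanocapsule libraries above both controls, 253 ± 83.0 CPM in control and 1205 ± 699.7 CPM in nanocapsule libraries (mean ± SD, n = 2). Without the cell that held most in each library, Ccl3 was at 50.4, 6.47, 200 and 763.5 CPM and Ccl4 at 50.4, 68.0, 352 and 1124 CPM. Neither gene then overlapped between groups, but few control UMIs remained. Of Ccl3, Control 1 had 19 UMIs, 17 of them in the cell left out, and Control 2 had 3, 1 of them in that cell. Of Ccl4, Control 1 had 17 UMIs, 15 of them in the cell left out. The share of all genes that separate after such a removal was not computed.

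Cd8-bearing T-like cells carried most of both transcripts. Cells with a Cd8 UMI and no Cd4 UMI (5, 29, 20 and 33 cells) held Ccl4 at 495, 323, 1136 and 2231 CPM and Ccl3 at 553, 17.9, 539 and 1324 CPM. Those with Cd4 and no Cd8 (1, 20, 7 and 5 cells) held Ccl4 at 0, 0, 164 and 587 CPM. Nearly every T-like cell with Ccl3 also held Ccl4 (30 of 31), and 46 of the 48 with Ccl4 also held Ccl5, against 105 with Ccl5 in all.

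NK-like cells held Ccl3 at 348, 284, 1329 and 1131 CPM, with both nanocapsule libraries above both controls, 316 ± 44.8 CPM in control and 1230 ± 140 CPM in nanocapsule libraries (mean ± SD, n = 2). Their Ccl4 levels, 1043, 2404, 1807 and 1504 CPM, overlapped. The cell with most held between 29.3% and 72.7% of a library's NK-like Ccl3 UMIs. With T-like and NK-like cells summed, a choice made after the small class sizes were seen, Ccl3 stood at 348, 64.0, 491 and 1000.4 CPM and Ccl4 at 581, 632, 893 and 1674 CPM. The log2 fold of Ccl4 was 1.10 ± 0.31 (SE; edgeR adjusted p = 0.456), with an unadjusted p of 0.00502, and that of Ccl3 was 2.24 ± 0.80 (SE; edgeR adjusted p = 0.65), with an unadjusted p of 0.0350. With no filter on low counts the adjusted p was 0.00948 for Ccl4 and 0.0495 for Ccl3. Leaving out Nanocapsule 1 gave 0.0244 and 6.9e-05. Without Nanocapsule 2 the Ccl4 fold was 0.61, and the Ccl3 fold was 3.58 without Control 1 and 1.19 without Control 2.

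Other properties of the T-like cells moved along with these values. Their median totals were 3122, 4295, 5061 and 7341 UMIs, and 38.5%, 46.0%, 54.1% and 67.3% of them had a Cd8 UMI and no Cd4 UMI. Thinned to 1500 UMIs, 0%, 7.94%, 16.2% and 30.6% of T-like cells held a Ccl4 UMI and 7.69%, 0%, 10.8% and 26.5% a Ccl3 UMI. The 10 macrophage markers summed to 18.4, 9.57, 525 and 17.4 CPM in T-like cells, with 9, 7, 4 and 7 of them at 0. In Nanocapsule 1, 1 T-like cell held at least 10 such UMIs, and no T-like cell of the other libraries did. The part of the Nanocapsule 1 value that came from that cell was not computed. Pigment-cell markers summed to 275, 252, 71.0 and 53.8 CPM, with 3, 0, 1 and 1 of 8 at 0. The part of depth, of the Cd8 share, of macrophage RNA and, in the joined sum, of the NK-like share in the Ccl3 and Ccl4 values was not tested.

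Plasmacytoid dendritic-like cells, 34 in all, also held Ccl3 at 224, 127, 263 and 0 CPM and Ccl4 at 1441, 521, 2367 and 333 CPM, and conventional dendritic-like cells Ccl4 at 185, 402, 57.1 and 222 CPM. Tumour-like cells were near 0 for Ccl4, at 0.119, 0.301, 0.227 and 0.298 CPM, below the 7.53, 21.4, 14.8 and 20.8 CPM of empty droplets. Their log2 fold was 0.39 ± 0.48 (SE; edgeR adjusted p = 0.868), and it was -0.15 without Control 1. Summed over the called cells of a library, Ccl3 stood at 4.25, 13.9, 8.13 and 15.8 CPM and Ccl4 at 8.09, 28.2, 18.1 and 32.2 CPM, with both groups overlapping. The log2 folds were 0.43 ± 0.61 (SE; edgeR adjusted p = 0.955) and 0.50 ± 0.61 (SE; edgeR adjusted p = 0.947). Without Control 1 they were -0.16 and -0.11, and the Ccl3 fold was -0.086 without Nanocapsule 2.

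**Figure D5:**
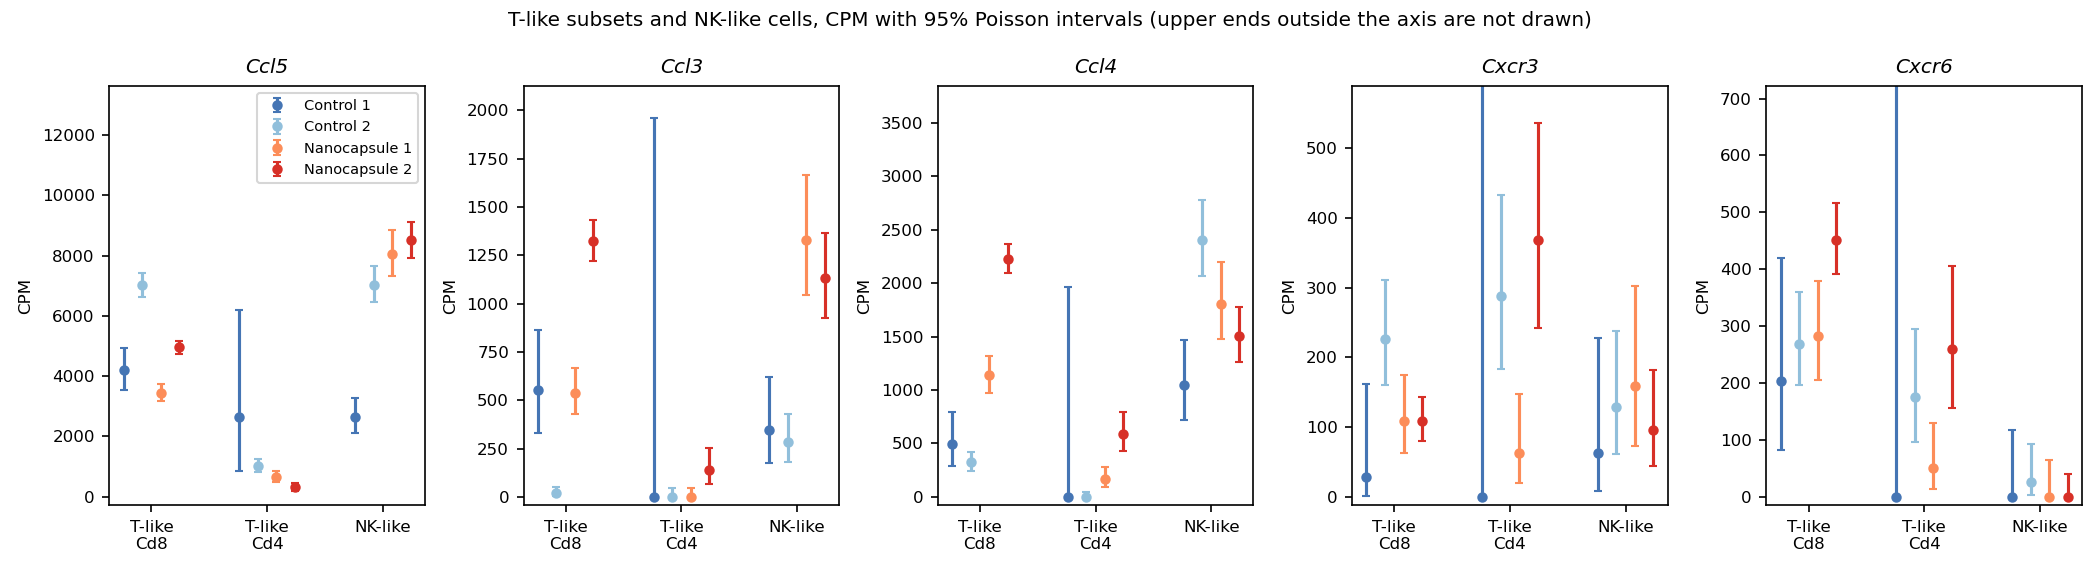
Ccl5, Ccl3, Ccl4, Cxcr3 and Cxcr6 in T-like cells with Cd8 or Cd4 UMIs and in NK-like cells, in CPM with 95% Poisson intervals that cover counting error only; upper ends beyond the axis are not drawn. Ccl4 in Cd8-bearing cells was at 495 and 323 CPM in the controls and at 1136 and 2231 CPM in the nanocapsule libraries.

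Cxcr3, the receptor for CXCL9 and CXCL10, was at its highest CPM in T-like, NK-like and plasmacytoid dendritic-like cells. T-like cells held 55.1 and 252 CPM in the controls and 92.3 and 153 CPM in the nanocapsule libraries, in 2 of 13, 41 of 63, 12 of 37 and 30 of 49 cells. Control 2 was highest and Control 1, with 3 UMIs, lowest, so the groups overlapped. NK-like cells held 63.2, 129, 159 and 96.0 CPM and plasmacytoid dendritic-like cells 99.4, 112, 0 and 22.2 CPM, the latter with 4, 15, 0 and 1 UMIs. In plasmacytoid dendritic-like cells both nanocapsule libraries were below both controls. The ranges of these 3 classes overlapped. T-like cells with Cd4 and no Cd8 held 0, 289, 63.1 and 369 CPM and those with Cd8 and no Cd4 29.1, 227, 109 and 108 CPM. In T-like and NK-like cells together the log2 fold was -0.41 ± 0.43 (SE; edgeR adjusted p = 0.85), and it turned to 1.21 without Control 2.

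Tumour-like cells nonetheless held 2082 of the 2384 Cxcr3 UMIs in cells. Their level was low and even at 5.18, 6.19, 4.62 and 5.57 CPM, and the UMIs were spread over 17.2%, 30.8%, 21.9% and 33.4% of the cells, with no cell above 2.06% of a library's UMIs. Cells without an immune-marker UMI stood at 5.0, 6.47, 4.50 and 5.05 CPM. Empty droplets were at 4.39, 6.43, 6.23 and 5.40 CPM in the same order. Macrophage-like cells of the same libraries held 4 Cxcr3 UMIs in 5349969, or 0.748 CPM (95% Poisson interval 0.204 to 1.91, counting error only). B-like cells held 0, but the limit given above for their 0 UMIs is higher than the tumour-like level, so it cannot set the 2 classes apart. Thinned to 1500 UMIs, 0.593%, 1.05%, 0.651% and 1.09% of tumour-like cells held a UMI, against 15.4%, 31.7%, 16.2% and 34.7% of T-like cells. The tumour-like log2 fold was -0.15 ± 0.14 (SE; edgeR adjusted p = 0.809) and that over all called cells -0.10 ± 0.19 (SE; edgeR adjusted p = 0.97), the latter 0.07 without Control 2 and 0.07 without Nanocapsule 1.

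Cxcr6, the receptor for CXCL16, had most of its UMIs in T-like cells, except in Control 1, where tumour-like cells held 66.7%. T-like cells held 220.3 and 214 CPM in the controls and 174 and 364 CPM in the nanocapsule libraries, in 6 of 13, 25 of 63, 12 of 37 and 28 of 49 cells. Nanocapsule 2 was the highest and Nanocapsule 1 the lowest, so the groups overlapped. In Cd8-bearing cells without Cd4 the level was 204, 269, 282 and 451 CPM, with both nanocapsule libraries above both controls and Nanocapsule 1 only just. T-like cells with neither transcript went the other way, at 274, 105, 21.5 and 47.0 CPM on 7, 11, 10 and 10 cells, from 5, 5, 1 and 3 UMIs, with both nanocapsule libraries below both controls. Those with Cd4 and no Cd8 held 0, 176, 50.5 and 259 CPM and overlapped. Median totals were 2583, 3970, 4969.5 and 5842.5 UMIs in T-like cells with neither transcript. In Cd8-bearing cells without Cd4 they were 5750, 5020, 5136 and 8218 UMIs. The part of depth in this split was not tested. NK-like cells held 2 Cxcr6 UMIs in all, both in Control 2, and conventional dendritic-like, B-like, erythroid-like and fibroblast-like cells none. The log2 fold in T-like and NK-like cells together was 0.55 ± 0.38 (SE; edgeR adjusted p = 0.757), and it was -0.11 without Nanocapsule 2.

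Summed over every called cell, Cxcr6 was at 0.275, 0.921, 0.726 and 2.77 CPM, a log2 fold of 1.58 ± 0.85 (SE; edgeR adjusted p = 0.889), which was 0.36 without Nanocapsule 2 and 2.59 without Control 2. T-like cells numbered 13, 63, 37 and 49 in the same libraries, or 0.339%, 3.42%, 1.61% and 3.11% of called cells. That sum therefore holds both the share of T-like cells and their level. In tumour-like cells Cxcr6 was near 0, at 24, 12, 21 and 26 UMIs, with a log2 fold of 0.62 ± 0.36 (SE; edgeR adjusted p = 0.717). In tumour-like cells without an immune-marker UMI the fold was -0.16. Of 162 T-like cells, 85 held Cxcr3 and 71 held Cxcr6, and 41 held both, 48.2% of the first and 57.7% of the second.

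Set side by side, Cxcl16 was chiefly in macrophage-like and conventional dendritic-like cells while Cxcr6 was chiefly in T-like cells. Cxcl9 was chiefly in the same myeloid classes. Cxcl9 was not found in T-like, NK-like or plasmacytoid dendritic-like cells, the classes with the highest Cxcr3 levels. Cxcl10 had most of its UMIs in tumour-like cells but was also found in those classes. They held 22, 12 and 2 of its 10365 UMIs, the first in 10 of 162 T-like cells and the second in 2 of 54 NK-like cells. Its highest levels there were 38.3, 142 and 14.9 CPM, all in Control 2, where 1 NK-like cell held all 11 NK-like UMIs. Conventional dendritic-like cells held both Cxcl9 and some Cxcr3, the latter at 9.27, 5.13, 0 and 26.9 CPM in 1 of 14, 2 of 36, 0 of 11 and 5 of 26 cells, and tumour-like cells held most Cxcr3 UMIs. Of the CC chemokines, Ccl5 was chiefly in T-like, NK-like and conventional dendritic-like cells. Ccl3 and Ccl4 had most of their UMIs in macrophage-like cells and their highest levels in neutrophil-like cells, and were also found in T-like and NK-like cells.

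Of 31 other chemokine, receptor and chemokine-processing genes, 27 could be measured on a single row, and none passed the test in any fit. In T-like and NK-like cells 8 were tested, with a median log2 fold of -0.48 against -0.00033 over all genes, and Ccr7, a receptor of naive and central memory cells, had a log2 fold of -0.99 ± 0.38 (SE; edgeR adjusted p = 0.65). The most abundant there was Xcl1, a chemokine that attracts cross-presenting dendritic cells, at 1463, 353, 308 and 405 CPM. Its log2 fold was -1.22 ± 0.63 (SE; edgeR adjusted p = 0.705). Xcl1 was among the leading genes of the NK-like cluster, whose share of the joined sum was largest in Control 1. The part of that share in the Xcl1 fold was not tested. In macrophage-like cells 6 were tested, with a median of -0.03 against 0.01. Ccr1, a receptor for CCL3 and CCL5, was among the most abundant, with a log2 fold of 0.43 ± 0.26 (SE; edgeR adjusted p = 1.00). In tumour-like cells 11 and over all called cells 23 were tested, with medians of 0.22 and 0.18, and Adam10 and Adam17, proteases that cleave CXCL16 from the membrane, were the most abundant. Their tumour-like folds were 0.01 ± 0.08 (SE; edgeR adjusted p = 0.99) and -0.02 ± 0.08 (SE; edgeR adjusted p = 0.978). Ccr7 and Cxcr4 led the 5 tested in B-like cells, where the median was -0.16, with folds of 0.22 ± 0.24 (SE; edgeR adjusted p = 0.987) and 0.12 ± 0.76 (SE; edgeR adjusted p = 0.995).

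The interferon gamma list of 8 genes also had no member past the test. Median log2 folds were 0.46 over all called cells (7 of 8 above 0), 0.19 in tumour-like cells (5 of 7), 0.30 in macrophage-like cells (5 of 7), -0.07 in T-like and NK-like cells (3 of 7) and -0.02 in B-like cells (3 of 6), against medians of all genes between -0.0053 and 0.01. Among the most abundant members were Jak1 and Ifngr2 over all cells and in tumour-like cells, Jak1 in macrophage-like, Jak1 and Jak2 in B-like, and Ifngr1 and Jak1 in T-like and NK-like cells. Jak1, a kinase of the receptor, had folds between -0.26 and 0.19 in these fits. Ifng itself, singled out after its values were seen, was at 105, 87.0, 219 and 362 CPM in T-like and NK-like cells, with a log2 fold of 1.69 ± 0.35 (SE; edgeR adjusted p = 0.288) and no overlap between groups.

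The genes most like each member were sought across 20 sums, those of tumour-like, macrophage-like, B-like, erythroid-like and joined T-like and NK-like cells in 4 libraries, by Pearson r of log2(CPM + 1) over 14258 genes. The sums share libraries and depth, so these values are descriptions. Cxcl9 was closest to Acod1 (r = 0.994), Ms4a8a (0.989) and Adap2os (0.987), and Cxcl10 to Alpk1 (0.955), Pwwp2b (0.945) and Tbc1d8 (0.940). Cxcl16 was closest to Csf2rb2 (0.998), Pilrb1 (0.991) and Pak1 (0.990). Ccl5 was closest to Il12rb2 (0.979), Serpinb9 (0.975) and Ctla2a (0.971), Ccl3 to, among others, Ccl4 (0.977) and Prr5l (0.976), and Ccl4 to Dok2 (0.995), Lcp2 (0.994) and Prr5l (0.993). Of the receptors, Cxcr3 was closest to Lysmd2 (0.965), Acsbg1 (0.958) and Adamts14 (0.95), and Cxcr6 to Cd160, Trac and Cd8a (0.998 each), the last 2 of which encode the T cell receptor alpha chain and the CD8 alpha chain.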

How the data were processed

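The authors deposited unfiltered matrices of raw UMI counts, 1 per library, from 10x Genomics 3′ v2 libraries, per the labels' protocols. Alignment was to mm10 with Cell Ranger 2.1.1 per the submitters' processing notes, although version 4 stands in the file headers. The deposited gene and barcode files give the row and column names.

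A barcode was kept as a cell from 1500 UMIs and 200 genes upward, if mitochondrial UMIs did not exceed 20% (3837, 1840, 2294 and 1577, with median totals of 35172, 39054, 46729 and 62976 UMIs). Cells were clustered in scanpy 1.11.5 on 1971 variable genes, after 29 chemokine and interferon genes had been left out, with 30 components, 15 neighbours and Leiden resolution 2, without integration. Clusters were named from markers where at least 3 markers reached 5 CPM and their median log2 fold was at least 3 (2 for tumour-like cells), limits set after the clusters were seen. Scrublet marked 13 of 9548 cells, too few for a working caller, so none was removed as a doublet. Free RNA was read from barcodes of 1 to 50 UMIs.

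Counts were summed per class and library and tested with edgeR 4.0.16 under R 4.3.3 (scaling by TMM, filterByExpr, robust quasi-likelihood, Benjamini-Hochberg over all genes of a fit, threshold 0.05), for classes of at least 20 cells in every library. The scripts were tested on simulated data. The standard error is the absolute log2 fold over the square root of F. Intervals are 95%, exact Poisson or Clopper-Pearson. The text names the 8 members in every fit, the 2 most abundant genes of each accompanying list where none passed, and the 3 genes most like each member. Some genes that this rule names are not reported here. Alternatives were DESeq2 1.42.0 and its size factors, no filter, a replicate block, each library left out, other cell limits, a coarser clustering, no shared barcodes and tumour-like cells without immune UMIs. Summing T-like with NK-like cells, leaving out the interferon cluster and adding an unnamed macrophage-led cluster were chosen after seeing the data. The members and lists were chosen with earlier results of these data known. Cxcl11 had no row, and Ccl19, Ccl21a and Ccl27a, on several rows, were not used.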

Additional observations from a re-analysis of the deposited data

How the results depend on the processing

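Of 313 values of the 26 member folds under an alternative, 275 kept their direction and their side of the threshold, 9 passed it and 29 changed sign, 21 of these on leaving out a library. Log2 folds that changed sign otherwise were those in tumour-like cells of Ccl5 (-0.43) and Ccl4 (-0.036) at Leiden resolution 1 and of Ccl5 (-0.26) and Cxcr6 (-0.16) in cells without immune UMIs. In macrophage-like cells Ccl3 was at 0.25 with cells from a minimum set per library, 0.031 at resolution 1 and 0.038 with the unnamed cluster, and in T-like and NK-like cells Ccl5 was at -0.0093 without shared barcodes. Leaving out 1 library at a time, which leaves a lone library assumed to vary like the others, gave ranges over all called cells of -0.47 to 1.16 for Cxcl16, -0.16 to 1.43 for Ccl3, -0.11 to 1.57 for Ccl4 and -0.29 to 0.074 for Cxcr3. In tumour-like cells the ranges were -0.25 to 0.89 for Ccl5 and -0.15 to 1.08 for Ccl4. In macrophage-like cells they were -2.32 to 0.55 for Cxcl10, -0.26 to 0.11 for Cxcl16, -0.63 to 3.31 for Ccl5 and -0.24 to 0.19 for Ccl3, and in T-like and NK-like cells -0.33 to 0.62 for Ccl5, -0.80 to 1.21 for Cxcr3 and -0.11 to 0.99 for Cxcr6. The cause of these changes was not tested.

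Over all called cells, genes called numbered 65 with DESeq2 and 120 with the replicate block. In tumour-like cells they were 7 with no filter, 91 with DESeq2, 283 with the block and 5 without the interferon cluster, and in macrophage-like cells 56, 2 and 51 with the first 3 of these settings and 1 with the per-library minimum. B-like cells gave 20, 1 and 8, and T-like and NK-like cells 58, 3 and 3. Leaving out a library gave 0 over all called cells, 10 to 119 in tumour-like, 0 to 239 in macrophage-like, 8 to 29 in B-like and 3 to 52 in T-like and NK-like cells. The labels do not say that replicate numbers pair the libraries. Deviations of same-numbered libraries had correlations of 0.674, 0.496, 0.212, 0.077 and -0.099 in these fits in that order. With the replicate block Cxcr6 over all called cells had a log2 fold of 1.52 (edgeR adjusted p = 0.0494) and Cxcl9 in tumour-like cells 3.20 (0.0294). Cell numbers limit the values of the classes not fitted, with as few as 2 endothelial-like, 3 neutrophil-like, 4 plasmacytoid dendritic-like and 7 NK-like cells in a library. At Leiden resolution 1 no cluster was named conventional dendritic-like, and 124 cells formed 1 plasmacytoid dendritic-like cluster. The values of both dendritic classes therefore hold for resolution 2 only. With the per-library minimum, B-like cells and joined T-like and NK-like cells were too few to fit.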
